A study of Mus musculus with 12 samples.

Results

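The 10 genes described here are those of the receptor for interferon-γ (IFN-γ), of the Janus kinases (JAKs) and of the inhibitors that act on them: Ifngr1, Ifngr2, Jak1, Jak2, Tyk2, Socs1, Socs2, Socs3, Ptpn2 and Pias1. They were listed by name for their place in the pathway, out of 55536 annotated mouse genes, and all 10 passed the filter on low counts. Their RNA was measured by total RNA-seq in cultured mouse OPCs, the oligodendrocyte precursors from which myelin-forming cells arise. The cells came from pooled brains of pups aged P4 to P6, sorted by Sox10-driven GFP or on beads by CD140a, the PDGF receptor α, and were grown in PDGFaa and bFGF. The labels call every library Sox10GFP+ OPCs, and do not say which of them, if any, came from the beads. Cells were left untreated (Ctr-OPCs), or given 1 µM dexamethasone, a synthetic glucocorticoid (Dexa), or 100 ng/ml IFN-γ, each for 48 h, with 4 labelled replicates a group from different litters. The GFP line carries Sox10:Cre with an RCE:LoxP (EGFP) reporter, which marks the whole oligodendrocyte lineage and not OPCs alone, and the labels give EAE as the mouse model of every library, treated or not. In the paper, however, EAE was induced in older males, while primary cultures came from P4 to P6 animals of both sexes. The question put to the genes was how the machinery that receives and limits the IFN-γ signal was expressed in OPCs at rest, under the cytokine itself and under a glucocorticoid.

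IFN-γ binds a receptor made of IFNGR1, which holds the ligand, and IFNGR2, which is needed for signalling. JAK1 is bound to the first chain and JAK2 to the second, and on ligand binding they phosphorylate the receptor and then STAT factors, which enter the nucleus as dimers and bind GAS elements. Several brakes act on this chain. SOCS1 and SOCS3 are made in response to the signal and block JAK activity, PTPN2 removes phosphate from JAK and STAT proteins, and PIAS1 hinders the action of STAT factors on DNA. TYK2 serves the type I interferon receptor rather than the IFN-γ receptor, and SOCS2 is best known as a brake on growth hormone signalling.

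Reads in genes ranged from 19209063 to 52074652 in the 11 libraries with complete tables. The table of Dexa replicate 3 listed only 33.7% of the transcripts, so it entered no fit over all genes. It lists Ifngr1, Socs1, Socs2 and Socs3 with all their transcripts, and its values are given for these genes alone. A normalized count below is a count divided by the library's scaling factor, and a gene is said to have risen or fallen where edgeR's quasi-likelihood test, with the replicate number as a block, gave an adjusted p under 0.05 over the 18386 genes tested. All 10 OPC markers reached the filter, and their summed level was 187381.7 to 445089.2 normalized counts in Ctr-OPCs and 129048.2 to 304866.9 in IFN-γ-treated OPCs, where 8 of them were lower (0 without the replicate block). Of 12 microglia markers only 3 reached the filter, none of them passed the test in any comparison, and the defining marker Aif1 had at most 3 reads in any library. Of 7 astrocyte markers tested, 3 were higher and 2 lower under IFN-γ (1 and 0 without the block), with a summed level of 17224.4 to 50672.0 normalized counts in Ctr-OPCs and 34854.4 to 52699.2 in IFN-γ-treated OPCs. Of 4 neuron markers tested 1 was higher and 2 lower, of 6 fibroblast-like markers 1 higher and 2 lower, of 5 endothelial and mural markers 1 lower and of 6 mature oligodendrocyte markers 1 lower. Without the block the first and the second of these lists kept 1 higher gene each and the other lists none. Of all genes tested, 15.1% were higher and 15.9% lower under IFN-γ, and 8.46% were called without the block (edgeR). Of 6 T and NK cell markers none reached the filter, and the gene for the ligand, Ifng, had 0 reads in every full library, which allows up to 3 reads in each. The part that a change in cell makeup had in the values below was not tested, and in bulk RNA fewer cells of a type and less RNA per cell cannot be told apart.

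Positions are those of GRCm38 with the GENCODE M21 annotation. Ifngr1 (ENSMUSG00000020009) lies on chromosome 10 at 19591949 to 19610229, plus strand, and Ifngr2 (ENSMUSG00000022965) on chromosome 16 at 91547072 to 91565623, plus strand. Jak1 (ENSMUSG00000028530) lies on chromosome 4 at 101152367 to 101265282, minus strand, Jak2 (ENSMUSG00000024789) on chromosome 19 at 29251828 to 29313080, plus strand, and Tyk2 (ENSMUSG00000032175) on chromosome 9 at 21104068 to 21131243, minus strand. Socs1 (ENSMUSG00000038037) lies on chromosome 16 at 10782240 to 10785536, Socs2 (ENSMUSG00000020027) on chromosome 10 at 95385362 to 95417180 and Socs3 (ENSMUSG00000053113) on chromosome 11 at 117966079 to 117970047, all on the minus strand. Ptpn2 (ENSMUSG00000024539) is on chromosome 18 and Pias1 (ENSMUSG00000032405) on chromosome 9 at 62878368 to 62987924, both on the minus strand. Tyk2 overlaps the antisense gene 1700084C06Rik, which held 0.0 to 4.4 normalized counts in Ctr-OPCs and no more than 2.6 in treated cells.

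Promoter sequence was at hand for 8 of the 10 genes, in RefSeq windows of 300 bases (GRCm38.p6), 250 before the start site and 50 after it. They were searched on both strands for the GAS letters TTCNNNGAA, which STAT dimers bind, for the core of the interferon-stimulated response element (ISRE), which is GAAA, any 2 bases and GAAA, and for the core of the glucocorticoid element, ACANNNTGT. The windows of Socs1 and Socs3, the 2 induced inhibitors known for this pathway, are shown because they alone among the 8 held a match, with the matched bases in capitals.

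Socs1: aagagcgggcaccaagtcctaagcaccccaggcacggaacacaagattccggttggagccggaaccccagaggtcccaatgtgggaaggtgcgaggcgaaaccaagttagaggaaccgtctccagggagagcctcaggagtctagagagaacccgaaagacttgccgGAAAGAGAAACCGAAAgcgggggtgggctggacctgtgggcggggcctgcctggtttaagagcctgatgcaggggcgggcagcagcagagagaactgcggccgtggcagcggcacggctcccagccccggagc

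Socs3: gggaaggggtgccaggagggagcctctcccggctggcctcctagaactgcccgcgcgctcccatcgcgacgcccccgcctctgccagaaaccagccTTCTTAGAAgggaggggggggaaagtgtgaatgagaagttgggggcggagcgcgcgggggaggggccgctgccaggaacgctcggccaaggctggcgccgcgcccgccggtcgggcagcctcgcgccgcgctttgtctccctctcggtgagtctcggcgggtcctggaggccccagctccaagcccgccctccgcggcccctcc

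The Socs1 window is chr16:10785487-10785786, minus strand. Its capitals cover 2 ISRE core matches that share bases, GAAAGAGAAA from -83 to -74 and GAAACCGAAA from -77 to -68, counted from the start site at 0. The Socs3 window is chr11:117969317-117969616, minus strand, with 1 GAS match, TTCTTAGAA, from -154 to -146, and its RefSeq start site lies 180 bases upstream of the start of the transcript that held nearly all its reads here. Among 32851 RefSeq promoters of this length, 3.44% held the ISRE core, 8.3% the GAS letters and 6.85% the glucocorticoid core. The windows of Ifngr1, Ifngr2, Jak1, Jak2, Tyk2 and Pias1 held none of the 3 motifs. The RefSeq start site of Jak2, at 29251803, lies 638 bases upstream of Jak2-204, which held a mean of 55.8% of its reads in Ctr-OPCs. Jak2-202, with 44.2%, starts at 29251828, close to that site. The matches are of letters in short windows and were not tied to binding here.

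IFN-γ raised the transcripts of both kinases of its own receptor and of all 3 SOCS genes. Socs1 went up 67.0-fold, Socs2 21.3-fold, Socs3 2.63-fold, Jak2 2.21-fold and Jak1 1.54-fold, while the ligand-binding chain Ifngr1 fell to 0.816 of its Ctr level. Thus 6 of 10 genes passed the test, 5 higher and 1 lower, against 31.0% of all genes tested (15.1% higher and 15.9% lower). Ifngr2, Tyk2, Ptpn2 and Pias1 did not pass it. The median log2 fold change of the 10 was 0.39, beside -0.025 for all genes tested. The same 6 genes had groups that did not overlap, 5 of them higher (8.69% of all genes) and 1 lower (5.77%). DESeq2 called 6 of the 10 with the block and without it (28.5% and 12.7% of all genes), and edgeR without the block called 5 (8.46%).

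**Figure D1:**
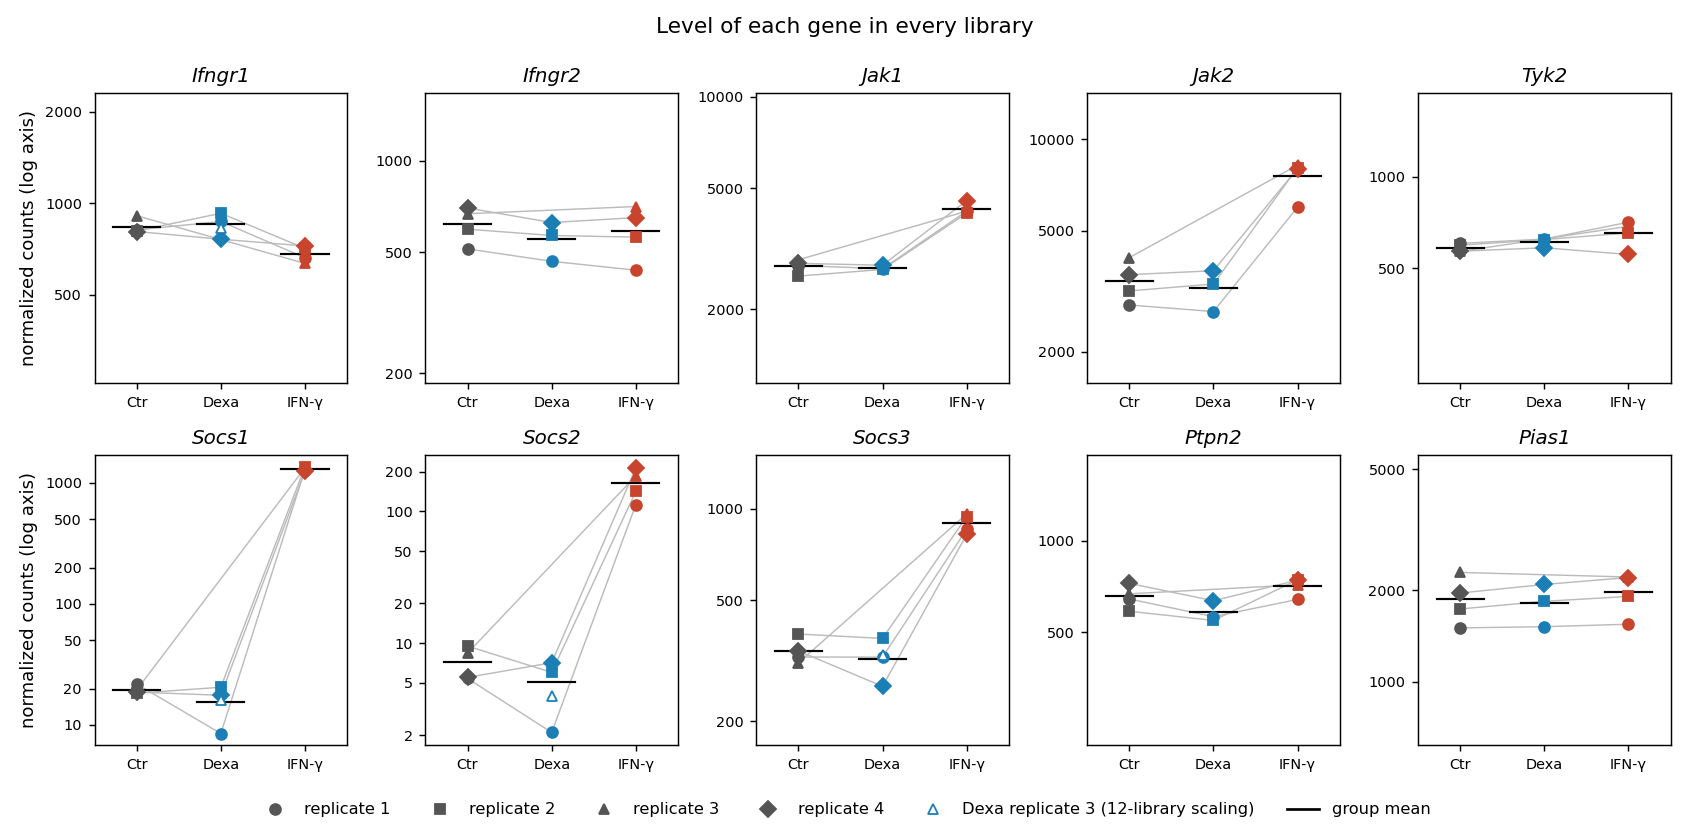
Normalized counts (log axis, scaled to each gene) of the 10 genes in each library of Ctr-OPCs, Dexa-treated and IFN-γ-treated OPCs; symbols mark the replicate number, grey lines join equal numbers, black bars are group means of the full libraries and the hollow triangle is Dexa replicate 3. All 4 IFN-γ-treated libraries lie above every other library for Socs1, Socs2, Socs3, Jak1 and Jak2, and the Ctr and Dexa points lie at like heights.

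Of the receptor chains only Ifngr1 passed the test, and whether its change differed from that of Ifngr2 was not tested. The 95% intervals of their ratios overlap. Ifngr1 held 817.6, 810.9, 910.5 and 807.7 normalized counts in Ctr-OPCs (replicates 1 to 4) and 662.2, 710.7, 634.2 and 724.1 in IFN-γ-treated OPCs. Every treated library was below every Ctr library, and the drop was between 0.16 and 0.52 on the log2 scale when same-numbered libraries were set against each other. The fitted log2 fold change was -0.29 ± 0.08 (SE; adjusted p = 0.0189, edgeR), a ratio of 0.816 with a 95% interval of 0.721 to 0.924. This call was lost in the edgeR fit without the replicate block (adjusted p = 0.0748; DESeq2 without the block, 0.0239) and on leaving out 1 of Ctr replicates 3 or 4 or IFNg replicates 2 or 3 (adjusted p = 0.0593 to 0.109), and on the TPM scale the log2 difference was -0.12 (limma, adjusted p = 0.56). There the median of all genes itself sat 0.146 higher in IFN-γ-treated OPCs, and 80.2% of the genes called were higher, against 48.7% with edgeR. Ifngr2, the signalling chain, held 512.7, 595.2, 669.1 and 698.8 normalized counts in Ctr-OPCs and 436.4, 560.5, 706.6 and 649.7 in treated OPCs. These ranges overlap, the log2 fold change was -0.08 ± 0.07 (SE; adjusted p = 0.394, edgeR) and the 95% interval of the ratio was 0.849 to 1.05.

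Of the kinases, Jak2 showed the larger change. It held 2849.3, 3169.6, 4078.1 and 3585.2 normalized counts in Ctr-OPCs and 5974.4, 8059.2, 8212.2 and 8001.8 in IFN-γ-treated OPCs, so that the lowest treated library stood above the highest untreated one. The log2 fold change was 1.15 ± 0.06 (SE; adjusted p = 2.41e-07, edgeR), with same-numbered libraries apart by 1.01 to 1.35. Jak1 is shared by many cytokine receptors and rose less. Its counts were 2782.1, 2568.1, 2906.0 and 2829.2 in Ctr-OPCs and 4198.6, 4135.7, 4197.8 and 4546.9 in treated OPCs, a log2 fold change of 0.62 ± 0.05 (SE; adjusted p = 6.1e-06, edgeR). The 95% interval of the ratio was 1.43 to 1.66 for Jak1 and 2.02 to 2.43 for Jak2, and these intervals do not meet. Tyk2 held 603.4, 595.2, 567.9 and 568.9 in Ctr-OPCs and 708.3, 653.4, 686.8 and 554.9 in treated OPCs. It was higher in 3 of 4 same-numbered pairs and lower in replicate 4, with a log2 fold change of 0.15 ± 0.07 (SE; adjusted p = 0.12, edgeR). Without IFNg replicate 4 that value was 0.21 and passed the test (adjusted p = 0.0466, edgeR).

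The SOCS genes had the fewest normalized counts of the 10 at rest and the largest changes. Socs1, the strongest known inhibitor of IFN-γ signalling, held 21.8, 18.3, 19.5 and 18.7 normalized counts in Ctr-OPCs and 1290.2, 1359.5, 1333.9 and 1249.5 in IFN-γ-treated OPCs. Both groups were tight, with a spread of 7.87% and 3.71% of the mean (SD, n = 4 each), and the log2 fold change was 6.07 ± 0.14 (SE; adjusted p = 2.24e-10, edgeR). The 95% interval of the ratio was 54.2 to 82.8, and in reads the change was from 24.5 ± 5.45 to 1213 ± 202 (SD, n = 4 each). Socs2 held 5.4, 9.5, 8.4 and 5.5 normalized counts in Ctr-OPCs and 112.4, 141.8, 185.7 and 214.0 in treated OPCs. It was thus a gene of few reads at rest (9.5 ± 4.8, SD, n = 4), and its ratio had the wider interval of 15.1 to 30.1. The log2 fold change was 4.41 ± 0.22 (SE; adjusted p = 1.9e-07, edgeR). Socs3, the inhibitor of gp130-type receptors and of JAK2, held 325.8, 387.7, 311.9 and 341.1 normalized counts in Ctr-OPCs and 857.8, 943.6, 962.4 and 824.0 in treated OPCs. The lowest treated library had over 2 times the count of the highest Ctr library, and the log2 fold change was 1.40 ± 0.09 (SE; adjusted p = 1.06e-06, edgeR). The intervals of the 3 ratios do not meet, that of Socs3 being 2.30 to 3.01.

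The brakes that are not of the SOCS family did not pass the test. Ptpn2, a phosphatase, held 643.4, 586.4, 669.1 and 724.1 normalized counts in Ctr-OPCs and 641.1, 743.6, 716.0 and 742.0 in IFN-γ-treated OPCs. The groups overlap, and the log2 fold change was 0.12 ± 0.07 (SE; adjusted p = 0.234, edgeR). Pias1 held 1501.8, 1733.1, 2285.7 and 1955.4 in Ctr-OPCs and 1544.0, 1905.9, 2207.5 and 2199.1 in treated OPCs, where replicate 1 was lowest in both groups. Its log2 fold change was 0.07 ± 0.05 (SE; adjusted p = 0.332, edgeR). The intervals of the ratio were 0.974 to 1.21 for Ptpn2 and 0.970 to 1.14 for Pias1, so changes of the size seen for Jak1 lie outside both.

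**Figure D2:**
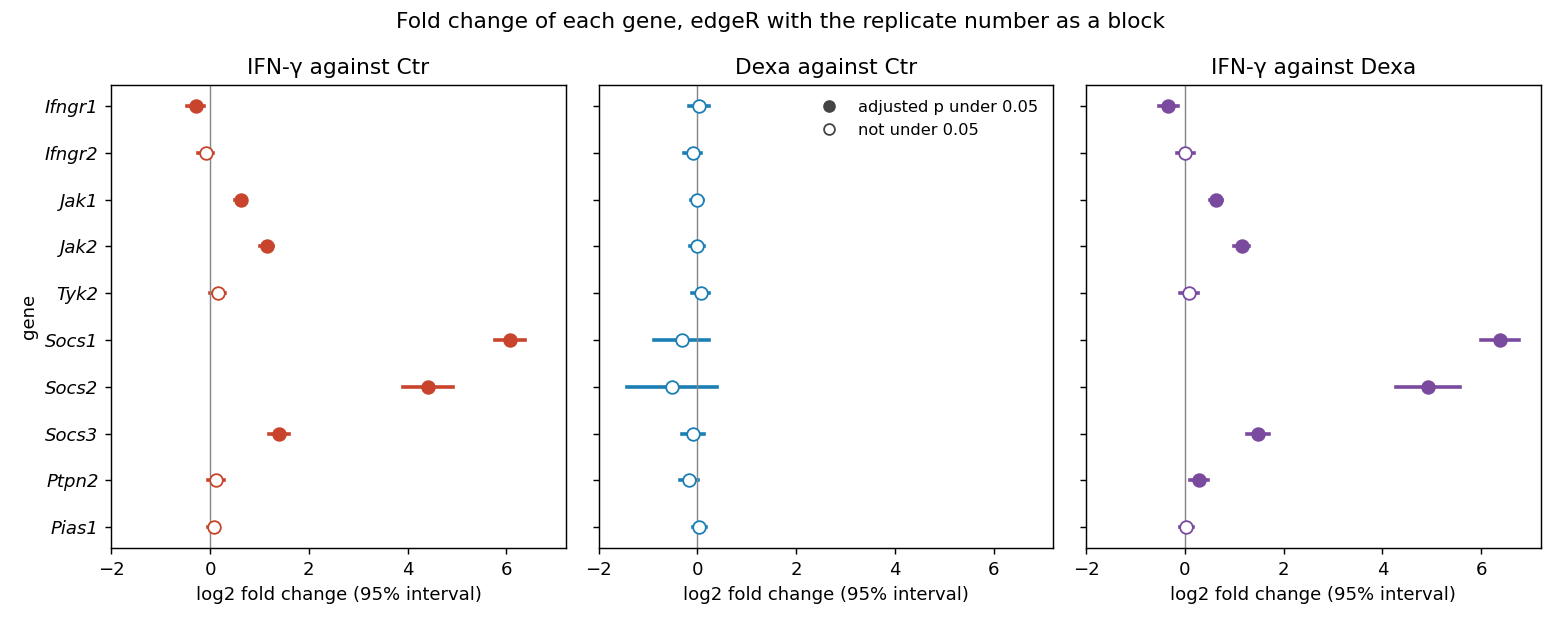
Log2 fold change of each gene in the 3 comparisons (edgeR, blocked by replicate number; bars, 95% intervals; filled points, adjusted p under 0.05). Socs1 and Socs2 stand at 6.07 and 4.41 for IFN-γ against Ctr, the points for Dexa against Ctr are all hollow, and the intervals of Socs1 and Socs2 are the widest there.

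Dexamethasone moved none of the 10 genes past the test. Their log2 fold changes against Ctr-OPCs ran from -0.51 for Socs2 to 0.07 for Tyk2, with a median of -0.05 beside -0.007 for all genes tested, and 0 had an unadjusted p under 0.05. DESeq2, with the block and without it, called 0 as well. The background is low here, since edgeR called 1.5% of all genes tested (1.24% higher and 0.256% lower). In 0 of the 10 genes did the 3 Dexa libraries stand apart from the Ctr libraries, against 2.54% of all genes higher and 1.84% lower in that way. The smallest p among the 10 was that of Ptpn2, with 562.8, 546.9 and 634.9 normalized counts in Dexa replicates 1, 2 and 4. These were lower than the same-numbered Ctr libraries in 3 of 3 pairs but overlapped the Ctr group, and the log2 fold change was -0.17 ± 0.08 (SE; adjusted p = 0.507, edgeR).

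The other genes stayed within or next to their Ctr ranges. In Dexa replicates 1, 2 and 4 Jak1 held 2715.7, 2700.6 and 2788.1 normalized counts, all inside the Ctr range of this kinase. Jak2 held 2711.4, 3339.8 and 3692.8, and its order over the replicates was that of the untreated cells. Ifngr1 held 871.4, 927.3 and 761.8, on both sides of its Ctr range. Replicate 3 had 829.8 for this receptor chain and 331.9 for Socs3, in the scaling of all 12 libraries. Socs3 in the full Dexa libraries was at 325.7, 375.2 and 261.0, of which replicate 4 alone was below every Ctr library. Ifngr2 held 466.7, 567.5 and 626.1, Tyk2 623.7, 621.3 and 583.7, and Pias1 1515.4, 1836.6 and 2086.3, and all 3 genes overlapped their Ctr groups.

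How small a Dexa effect could be seen differed between the genes. For the 3 kinases, the receptor chains and Pias1 the 95% intervals of the ratio lay between 0.833 and 1.18. For Socs1 the counts were 8.5, 20.5 and 17.6 in Dexa replicates 1, 2 and 4 and 16.2 in replicate 3, and for Socs2 they were 2.1, 6.0 and 7.1 with 4.0 in replicate 3. Replicate 1 was the lowest for both genes, with 8 and 2 reads. The intervals were as wide as 0.546 to 1.19 for Socs1 and 0.373 to 1.32 for Socs2, and so span a decrease, no change and an increase. Without Dexa replicate 1 the log2 fold change of Socs1 was 0.0068 in place of -0.31. In the fit of all 12 libraries the values of the 4 genes that Dexa replicate 3 lists whole were 0.02 for Ifngr1, -0.31 for Socs1, -0.60 for Socs2 and -0.08 for Socs3, with adjusted p of 0.573 to 0.953 (edgeR).

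The comparison of the treatments with each other gave the IFN-γ pattern again, and it shares its IFN-γ libraries with the comparison above. Here 7 of 10 genes passed the test, 6 higher and 1 lower in IFN-γ-treated than in Dexa-treated OPCs, against 33.1% of all genes (16.4% higher and 16.7% lower). The log2 fold changes were 6.38 for Socs1, 4.92 for Socs2, 1.48 for Socs3, 1.15 for Jak2, 0.63 for Jak1 and -0.33 for Ifngr1, with adjusted p of 1.29e-09, 8.21e-07, 2.36e-06, 7.21e-07, 1.44e-05 and 0.0174 in that order (edgeR). Ptpn2 joined them in this comparison alone, at 0.29 ± 0.08 (SE; adjusted p = 0.0207, edgeR). Its IFN-γ-treated libraries held 641.1 to 743.6 normalized counts and the 3 Dexa libraries 546.9 to 634.9, the nearest being a few counts apart. The share of all genes with groups apart was not counted for this comparison. The Ptpn2 call was lost without the replicate block (adjusted p = 0.13, edgeR, and 0.0584, DESeq2). It was also lost on leaving out 1 of the 3 Dexa libraries or IFNg replicate 2 (0.0581 to 0.102, edgeR). The Ifngr1 call was lost without the block in edgeR (0.066) but not in DESeq2 (0.0163), on leaving out Dexa replicate 1 (0.0819), Dexa replicate 2 (0.125) or IFNg replicate 2 (0.057), and on the TPM scale (0.554, limma). Ifngr2, Tyk2 and Pias1 were at 0.01, 0.09 and 0.03.

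Levels can be set side by side between genes in TPM, which accounts for transcript length. At rest the order was Jak2 at 15.02 ± 3.17 TPM (SD, n = 4), Jak1 at 11.33 ± 0.777, Pias1 at 11.16 ± 2.85, Ifngr1 at 8.38 ± 0.987, Ptpn2 at 7.64 ± 0.527, Ifngr2 at 6.22 ± 1.08, Tyk2 at 2.76 ± 0.163, Socs3 at 2.69 ± 0.389, Socs1 at 0.137 ± 0.00886 and Socs2 at 0.0907 ± 0.046. Neighbours in that order overlapped between libraries except Ptpn2 above Ifngr2, Ifngr2 above Tyk2 and Socs3 above Socs1. Resting OPCs thus held RNA for both receptor chains and all 3 kinases at 2.59 to 19.01 TPM in any Ctr library, and for Socs1 and Socs2 at no more than 0.158 TPM. Under Dexa the order was the same.

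**Figure D3:**
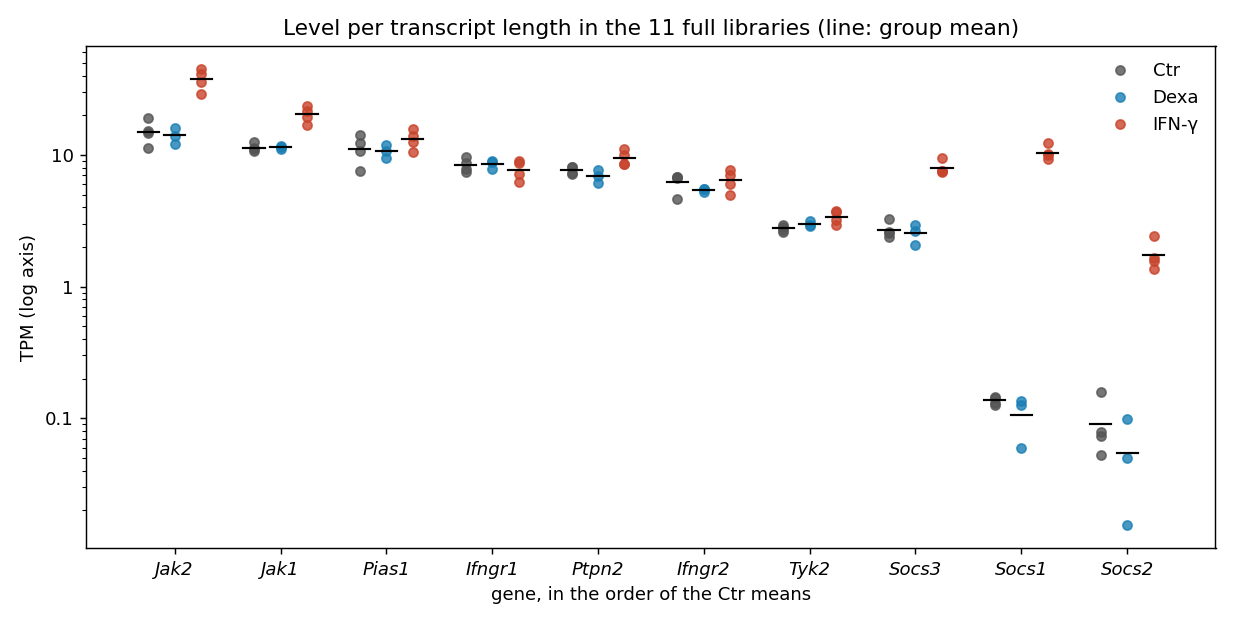
TPM (log axis) of the 10 genes in the 11 full libraries, in the order of the Ctr means; points are libraries and black lines group means. Socs1 goes from at most 0.145 TPM in the Ctr libraries to at least 9.24 TPM in the IFN-γ-treated ones, into the range of Ptpn2.

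Under IFN-γ Socs1 rose from the ninth to the fourth place, at 10.42 ± 1.29 TPM (SD, n = 4), between Pias1 (13.14 ± 2.2) and Ptpn2 (9.53 ± 1.23) with ranges that overlap both. Jak2 (37.59 ± 7.0) and Jak1 (20.34 ± 2.84) stayed on top and no longer overlapped each other or the next gene. Per library, there were 0.0165 ± 0.00193 Socs1 transcripts for each Ifngr1 transcript in Ctr-OPCs and 1.36 ± 0.134 in IFN-γ-treated OPCs (ratio of TPM, SD, n = 4 each). Among the 3 SOCS genes, Socs3 made up 92.2% ± 0.375 of the summed TPM at rest, and under IFN-γ it was Socs1 with 51.6% ± 1.3, Socs3 with 39.6% ± 1.71 and Socs2 with 8.72% ± 2.43. Their sum went from 2.91 ± 0.431 to 20.2 ± 2.2 TPM. The summed TPM of the 3 kinases went from 29.1 ± 3.98 to 61.3 ± 8.93, and the share of Jak2 in it from 51.2% ± 4.05 to 61.1% ± 3.9, that of Jak1 from 39.2% ± 2.95 to 33.3% ± 3.35 and that of Tyk2 from 9.59% ± 1.16 to 5.63% ± 1.15. These are descriptions, and TPM in the IFN-γ-treated libraries carries the shift of all genes given above.

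Most of the 10 genes were read from protein-coding transcripts with like shares in Ctr-OPCs and IFN-γ-treated OPCs. Jak1-201 held 98.9% to 99.1% of the reads of Jak1 in the Ctr libraries and 97.8% to 99.1% in the IFN-γ-treated ones, Socs3-201 held a mean of 99.9% in both, and Ifngr1-201 held 94.7% and 96.3%. Jak2 was divided between Jak2-204 and Jak2-202, at 55.8% and 44.2% in Ctr-OPCs and 55.5% and 44.5% in IFN-γ-treated OPCs. Ptpn2 was divided between Ptpn2-201 (69.8% and 71.8%) and Ptpn2-203 (29.2% and 27.4%). For Socs2, Socs2-201 held 73.3% of the reads in IFN-γ-treated OPCs (38.4% to 88.3% in single libraries) and 14.3% in Ctr-OPCs, where the gene had few reads and single libraries ran from 0.0% to 57.2%. The transcripts of Socs1 are nearly the same and their division between libraries is uncertain.

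Libraries of the same replicate number, taken here as pairs, went up and down together in some of the genes and not in others. The paper says that replicates came from different litters, but does not tie a replicate number to a litter. In Jak2, Ifngr2, Pias1 and Socs2 replicate 1 was the lowest of the numbers 1, 2 and 4 in Ctr, Dexa and IFN-γ alike, which was so in 22.6% of all genes tested. For Pias1 the log2 deviation of replicate 1 from its group mean was -0.20, -0.25 and -0.27 in the 3 groups and that of replicate 4 was 0.18, 0.22 and 0.24, a spread larger than any treatment difference of this gene. For Ifngr2 the deviations of replicate 1 were -0.22, -0.24 and -0.31. Tyk2 had the opposite order, highest in replicate 1 and lowest in replicate 4 in all 3 groups. For Socs1 under IFN-γ the deviations lay between -0.06 and 0.07.

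**Figure D4:**
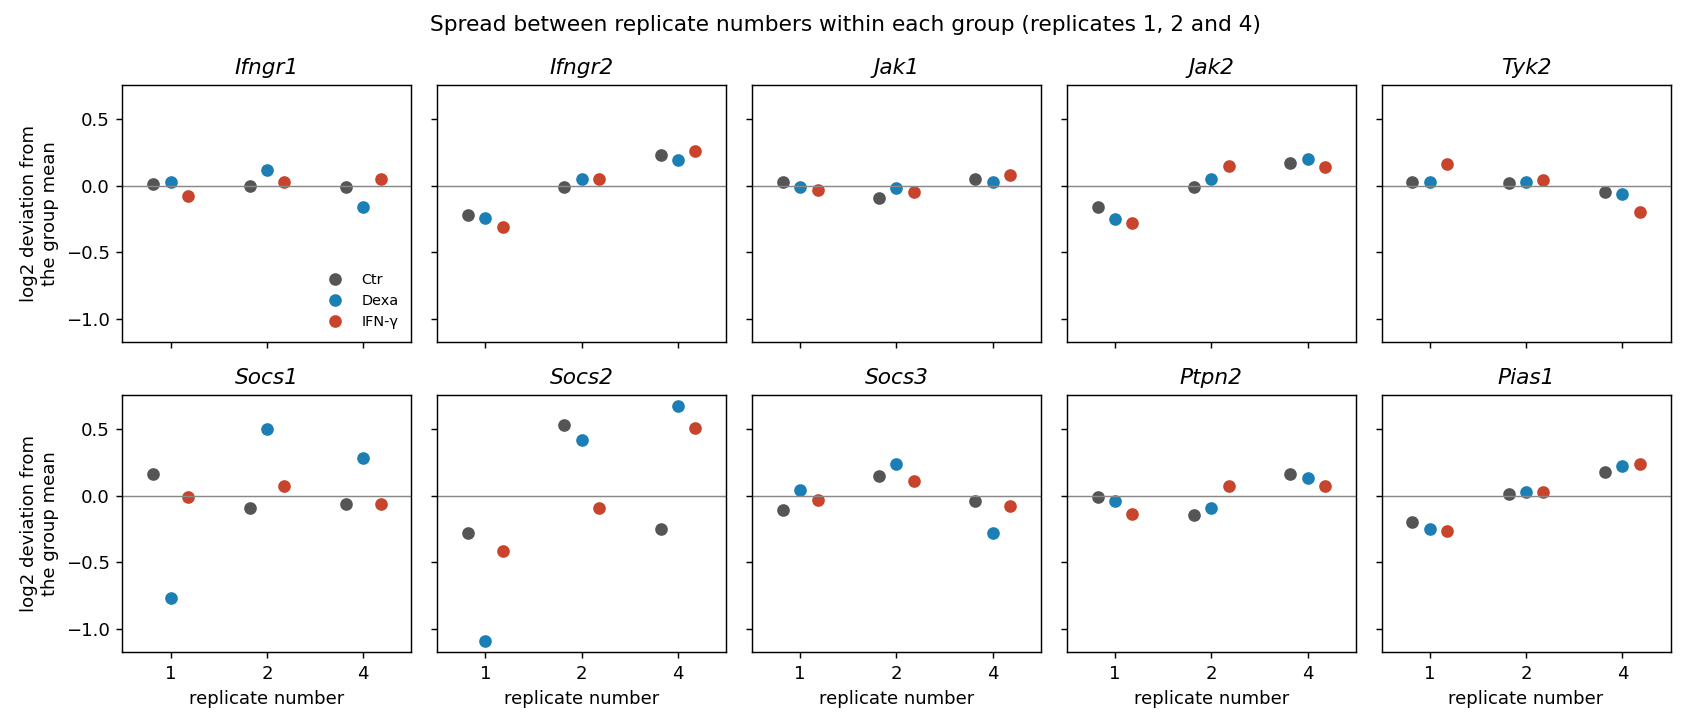
Log2 deviation of replicates 1, 2 and 4 from the mean of these replicates in the same group, for each gene; colours are groups. In Ifngr2, Jak2 and Pias1 replicate 1 lies below 0 and replicate 4 above it in all 3 groups, and the wide points of Socs1 and Socs2 under Dexa rest on few reads.

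The rest of the pathway was described through 5 lists of 53 genes in all, 39 of which reached the filter. Under IFN-γ 17 were higher and 2 lower (48.7% called, against 31.0% of all genes, 15.1% higher and 15.9% lower), with a median log2 fold change of 0.17 beside -0.025 for all genes tested. Without the replicate block edgeR called 15 higher and 1 lower, against 8.46% of all genes. Of the other SOCS genes only Cish, the founding member of the family and a brake on STAT5 signalling, rose, by 1.32 ± 0.15 (SE; adjusted p = 8.6e-05, edgeR), from 44.3 to 80.3 normalized counts in Ctr libraries to 110.8 to 179.9. Socs4, Socs5, Socs6 and Socs7 lay between -0.09 and 0.03 and did not pass the test. Of the 3 other PIAS genes 0 passed it.

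Among 9 other phosphatases and attenuators tested, 1 rose and 1 fell. Usp18, which takes ISG15 off proteins and blocks type I interferon signalling at its receptor, rose by 6.16 ± 0.12 (SE; adjusted p = 6.43e-11, edgeR), from 14.42 ± 4.43 to 1043 ± 125 normalized counts (SD, n = 4 each). Sh2b3, an adaptor that restrains JAK2, fell by 0.59 on the log2 scale (adjusted p = 0.00137, edgeR), a call that was lost without the block (adjusted p = 0.0798) and on the TPM scale. The phosphatases Ptpn1, Ptpn6 and Ptpn11 did not pass the test. Of 6 STAT genes tested, 5 rose, among them Stat2 by 3.27 ± 0.07 (SE; adjusted p = 1.68e-10, edgeR), Stat3 by 1.77, Stat5a by 0.94 and Stat5b by 0.38 on the log2 scale.

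Other JAK-coupled receptors and the kinase Jak3 made up the widest list, with 28 genes, 16 of them tested, 10 higher and 1 lower. Il12rb1, a chain of the receptors for IL-12 and IL-23, had at most 2 reads in any Ctr library and 185.7 to 1637.3 normalized counts under IFN-γ, at least 236-fold higher against a floor of 3 reads in each Ctr library (adjusted p = 2.73e-08, edgeR). IFNg replicate 1 held the highest value, and without it the limit was 97.3-fold, a setting added after seeing the data. The next were Osmr at 2.86 ± 0.23, Il6ra at 2.78 ± 0.29, Il15ra at 1.98 ± 0.17 and Jak3 at 1.75 ± 0.30 (log2 fold change, SE), with adjusted p of 7.13e-06 to 0.00129 (edgeR). Jak3 stayed a low gene, at 35.61 against 10.62 mean normalized counts, far below Jak1 and Jak2. Epor, the erythropoietin receptor, held 22.9 ± 6.3 normalized counts in Ctr-OPCs and 8.43 ± 2.6 under IFN-γ (SD, n = 4 each), a log2 fold change of -1.42 (adjusted p = 0.00381, edgeR). The other 5 receptor genes that rose did so by 0.23 to 1.36, and 2 of these calls, Il4ra and Il11ra1, were lost without the replicate block. With protein-coding transcripts only Il4ra stood at -0.05. The call of Il11ra1 (adjusted p = 0.0453, edgeR) was also lost with DESeq2 and the block (0.102), with library totals, on the TPM scale, without a count filter, and on leaving out any single library other than IFNg replicate 1. Under Dexa 1 of the 39 genes rose and 0 fell, a share of 2.56% that is near the 1.5% of all genes. This gene, Il4ra, a chain of the receptors for IL-4 and IL-13, went from 155.0 ± 33.2 normalized counts (SD, n = 4) to 282.8 ± 63.8 (SD, n = 3), by 0.91 ± 0.10 (SE; adjusted p = 0.00211, edgeR), and this call was lost without the replicate block (adjusted p = 0.525, edgeR) and with protein-coding transcripts only (0.359).

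**Figure D5:**
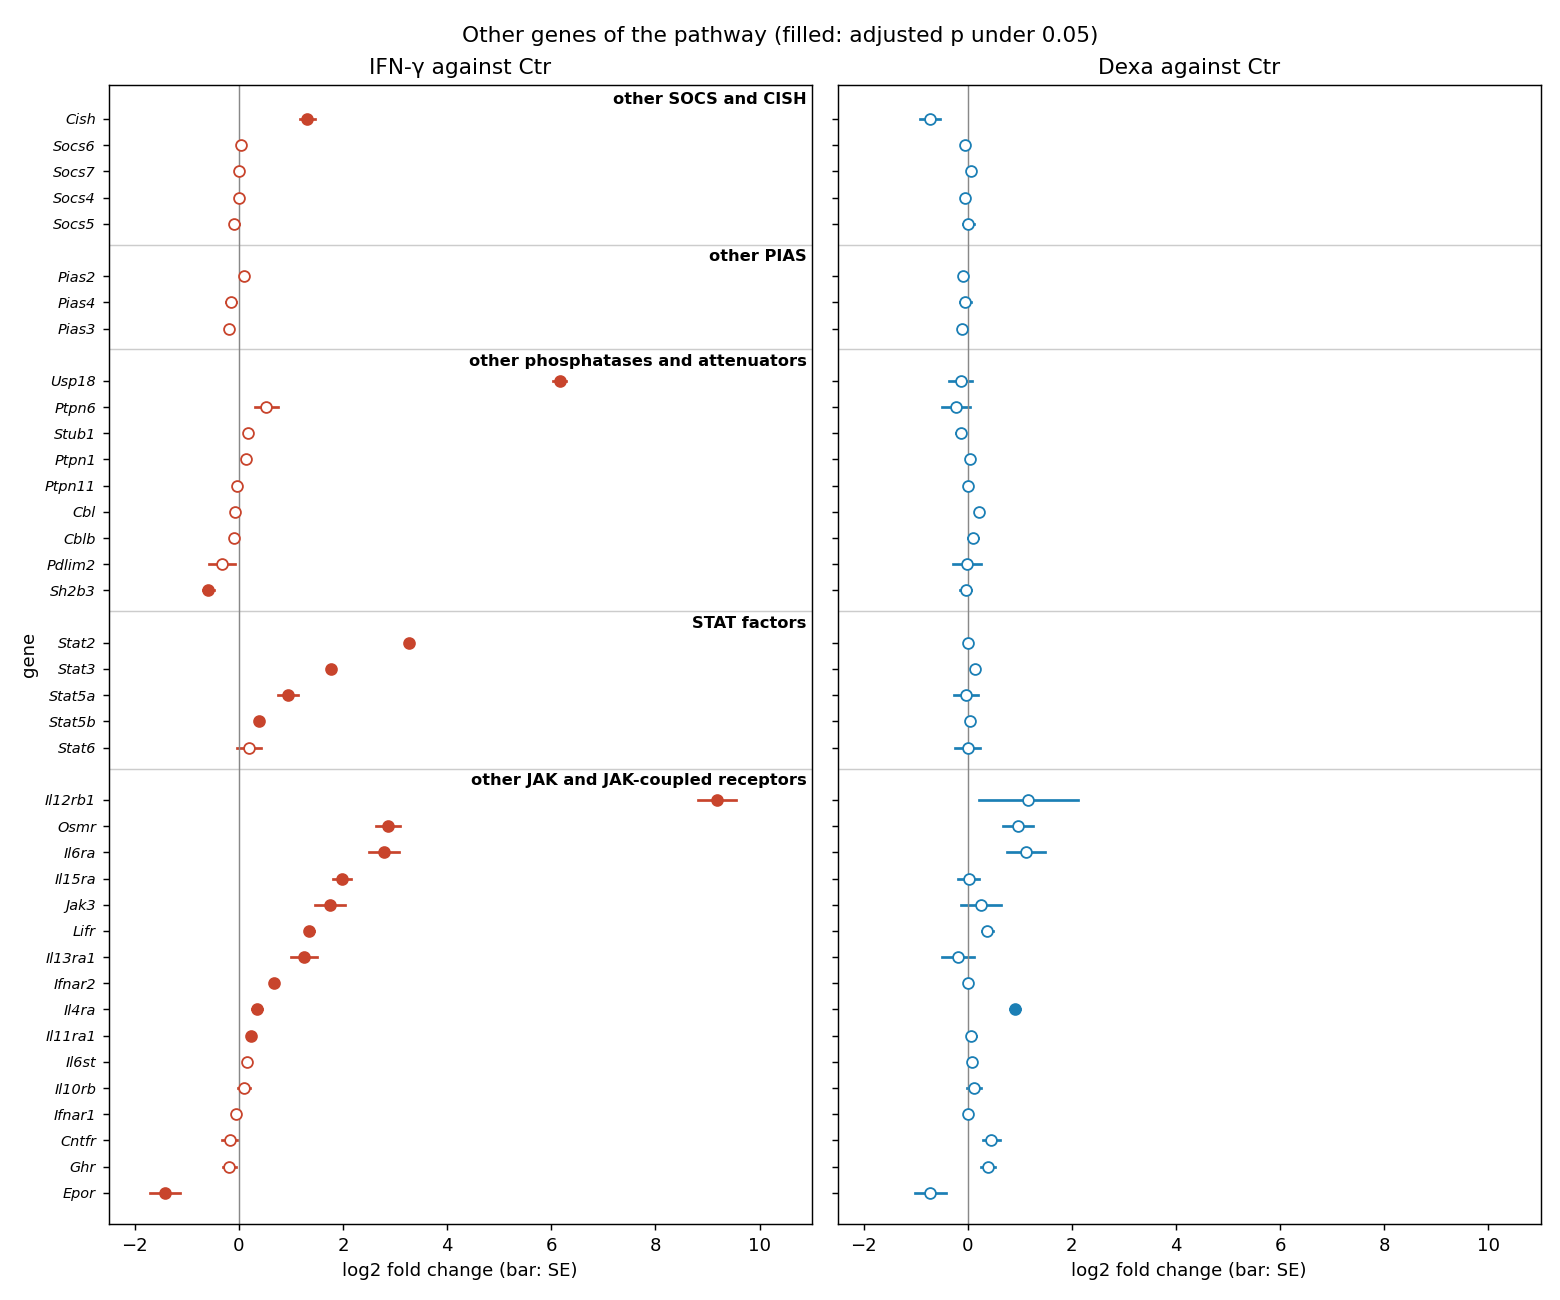
Log2 fold change (bar, SE) of 38 of the other pathway genes tested, by list, for IFN-γ against Ctr and Dexa against Ctr; filled points have an adjusted p under 0.05 (edgeR). The filled points for IFN-γ lie mostly among the STAT genes and the receptors, and the one filled point for Dexa is Il4ra at 0.91.

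Against Dexa, 16 of the 39 genes were higher and 5 lower under IFN-γ (53.8% called), where 33.1% of all genes were called, 16.4% higher and 16.7% lower. Cish differed by 2.04 (adjusted p = 2.12e-05, edgeR), with 33.44 ± 4.72 normalized counts under Dexa (SD, n = 3) and 150.2 ± 29.2 under IFN-γ (SD, n = 4). The attenuators Usp18 and Stub1 were higher by 6.29 and 0.30, and the STAT genes Stat2, Stat3, Stat5a and Stat5b by 3.27, 1.63, 0.98 and 0.33. Among the receptors and Jak3, Il15ra, Osmr, Il6ra and Jak3 were higher by 1.96, 1.89, 1.66 and 1.49, with adjusted p of 4.49e-05 to 0.00816 (edgeR), and Il12rb1 held 0.0 to 4.3 normalized counts under Dexa. The calls of Stub1 and Jak3 were lost without the block (edgeR). The lower genes were Sh2b3 (-0.55), Cbl (-0.31), Cntfr (-0.64), Ghr (-0.57) and Il4ra (-0.56), none of which passed the test without the replicate block, where edgeR called 12 higher and 0 lower.

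The genes whose levels ran most closely with Socs1 over the 11 full libraries were Mlkl, the executor of necroptosis, with r = 0.9975, Irf1, a transcription factor of the interferon response, with r = 0.9971, and Ifi44, an interferon-induced gene, with r = 0.9968 (Pearson, log2 CPM). The points share the split into 4 IFN-γ-treated and 7 other libraries, and 80 genes had an r over 0.99 with Socs1. For Socs2 the nearest were Majin (0.994), a meiotic telomere gene, Prph (0.9931), a neuronal intermediate filament, and Ifit3b (0.993), an interferon-induced gene, with 8 genes over 0.99. Ptpn2, which had the smallest p under Dexa, ran most closely with Utp14a (0.9451), Ssb (0.9433) and Cetn3 (0.9177), and no gene passed 0.99.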

How the data were processed

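Total RNA-seq libraries of Ctr, Dexa-treated and IFN-γ-treated OPCs were taken as quantified by the authors, who per the submitters' notes used STAR, Salmon 0.8.2 and DESeq2 with mm10/GRCm38. Each deposited table holds an estimated count and a TPM value per transcript, and Salmon's strand setting is not given in the sources used here. Counts were summed per gene by GENCODE M21 and rounded, and TPM was summed likewise. The table of Dexa replicate 3 ends early. A further 3 deposited tables hold the authors' own comparisons and were not used.

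Genes reaching 10 counts in 3 or more of the 11 full libraries were tested with edgeR 4.0.16 (TMM, quasi-likelihood F test, replicate number as a block, Benjamini-Hochberg). The study's methods name DESeq2, which was run as an alternative (1.42.0), as was limma 3.58.1 on log2(TPM + 0.1). DESeq2 was not the main test because an earlier simulation of these data found many false DESeq2 calls. The scripts used R 4.3.3 and Python and were tested on simulated data. Deviations from the group means correlated at 0.408 to 0.731 between libraries of the same number and at -0.628 to 0.513 between others. These ranges overlap. The paper says that replicates came from different litters, and the numbers were taken to pair the libraries. That equal numbers share a litter is an assumption. No libraries of a group agreed within sampling noise, but replicates 3 and 4 were the most alike. The chi-square of their counts per degree of freedom was 23.8 in Ctr and 21.5 in IFN-γ. Other pairs had 72.8 to 217 in Ctr and 52 to 132 in IFN-γ. Replicates 3 and 4 also share a title prefix that is not explained and was not used, and the cause of their likeness was not tested. Intervals and floors of 3 reads cover counting error or replicate spread only, and PCR copies were not told apart.

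The members, the gene lists and the tests were chosen with earlier results of these data known. All 10 members are named in every comparison, as are the called genes of each pathway list, up to the 5 largest in each direction, and the 3 genes most correlated with the members of largest change in IFN-γ (the top 2) and smallest p in Dexa. Of the genes that this rule or the marker lists hold, 2 are not reported here by name.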

Additional observations from a re-analysis of the deposited data

Results flagged for a closer look

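Each gene's 4 libraries in a group were searched for a library far from the other 3 (gap to the nearest over the whole range, Dixon's limit), in 24 sets of 4. Chance flags about 1 in 20, and 3 were found. Ifngr1 in Ctr replicate 3 was at 910.5 normalized counts, with the other Ctr libraries at 807.7 to 817.6. Jak1 in IFNg replicate 4 was at 4547 normalized counts, with the others at 4136 to 4199. Jak2 in IFNg replicate 1 was at 5974 normalized counts, with the others at 8002 to 8212.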

How the results depend on the processing

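Socs1, Socs2, Socs3, Jak1 and Jak2 kept their direction and their call for IFN-γ against Ctr and against Dexa under every alternative in which they were tested. A minimum of 10 counts in every library removed Socs1 and Socs2. Their log2 fold changes against Ctr ran over 5.47 to 6.15, 3.27 to 4.65, 1.33 to 1.54, 0.59 to 0.83 and 1.10 to 1.32 in that order. The calls of Ifngr1, and of Ptpn2 against Dexa, were lost in edgeR without the block and on leaving out some single libraries, as given with them. DESeq2 without the block kept those of Ifngr1 but not that of Ptpn2. The replicate block set the number of genes called: for IFN-γ against Ctr, Dexa against Ctr and IFN-γ against Dexa these were 5702, 275 and 6089 with it and 1555, 24 and 1576 without it (edgeR), and DESeq2 without the block gave 2328, 100 and 2372. For Dexa against Ctr DESeq2 with the block gave 456, no count filter 642 and limma on TPM 128. Over the genes that Dexa replicate 3 lists whole, 12 libraries gave 2068, 122 and 2443 of 6485 genes tested. There 11 libraries, added after seeing the data, gave 1983, 69 and 2120 of 6482. Both called 4 members for IFN-γ against Dexa, of the 4 tested there. Leaving out 1 library gave 4133 to 5952, 78 (without Dexa replicate 2) to 399, and 4136 to 6132 genes, and 5 to 7, 0 and 5 to 7 members. The members' values that changed sign were called in no setting. For IFN-γ, Ifngr2 was at 0.04 on the TPM scale against Ctr and at -0.02 with library totals against Dexa (-0.01 to 0.07 leaving out 1 library). For Dexa against Ctr, Pias1 was at -0.04 without the block in edgeR and in DESeq2, and Jak2 at 0.0032 with protein-coding transcripts only. Leaving out 1 library there gave -0.02 to 0.13 for Ifngr1, -0.04 to 0.02 for Jak1, -0.07 to 0.02 for Jak2, -0.65 to 0.0068 for Socs1 and -0.14 to 0.01 for Socs3. The cause of these changes was not tested. Depth limits Socs1 and Socs2 outside IFN-γ, with at most 29 and 15 reads in a library.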
